A study of Homo sapiens with 6 samples.

Results

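Stable CAL27 lines expressing MB21D2, whether wild type or the Q311E mutant, were compared as 1 pooled group with the line that carries the empty vector. The genes described are those for which all 4 expressing libraries lay on the same side of both vector libraries. There were 3374 such genes among 11481 tested genes, which are the genes with a mean of at least 1 FPKM (fragments per kilobase of exon, scaled to library size) over all 6 libraries, out of 30178 genes in the table. Of the 3374, 1368 lay above both vector libraries and 2006 lay below them. That split depended on the scaling: it was 1551 and 1757 with median scaling, 1603 and 1718 with quantile normalization, and 1681 and 1701 with the trend against exon length removed.

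CAL27 is an established line, which the labels give as an oral adenosquamous carcinoma. Total RNA of 3 stable lines was sequenced, with 2 libraries, A and B, per line. All 3 lines were grown in DMEM with serum and antibiotics under G418 selection, and the expressed proteins were GFP fusions. The 3 groups were the empty vector, wild-type MB21D2 and the Q311E form. The sources do not say whether a line was a clone or a pool, or whether A and B were separate cultures, so p-values measure the spread between these libraries, which may be technical. A peculiarity of the single vector line cannot be told apart from an effect of MB21D2.

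MB21D2 encodes a protein with a Mab-21 domain, the fold shared with the DNA sensor cGAS. Keratin 14 pairs with keratin 5 in the filaments of basal squamous epithelium. Immediate early genes such as EGR1 and FOS encode transcription factors that are switched on within minutes of growth factor signalling, partly through serum response factor at CArG boxes, and dual-specificity phosphatases then dampen the ERK kinases.

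The promoters of EGR1, JUN and CXCL14 are shown because these genes were above both vector libraries in all 4 expressing libraries and their windows each hold a motif of a factor that responds to such signals. Each is the 250 bases before the RefSeq start in GRCh38.p14, in the direction of the gene. Capitals mark CArG boxes in EGR1 (chr5:138465229-138465478, plus strand), the motif TGACNTCA in JUN (chr1:58784048-58784297, minus strand) and the motif TGANTCA in CXCL14 (chr5:135578992-135579241, minus strand), searched on both strands.
EGR1: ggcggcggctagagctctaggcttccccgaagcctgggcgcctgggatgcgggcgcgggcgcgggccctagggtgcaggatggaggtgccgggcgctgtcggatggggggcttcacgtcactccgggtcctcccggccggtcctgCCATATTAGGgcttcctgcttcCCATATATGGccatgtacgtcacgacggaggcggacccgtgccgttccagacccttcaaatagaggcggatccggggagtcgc
JUN: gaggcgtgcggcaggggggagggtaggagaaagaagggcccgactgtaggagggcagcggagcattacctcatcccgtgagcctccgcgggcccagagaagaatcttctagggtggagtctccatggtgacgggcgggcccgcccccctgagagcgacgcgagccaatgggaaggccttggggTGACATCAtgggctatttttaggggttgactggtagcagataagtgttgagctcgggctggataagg
CXCL14: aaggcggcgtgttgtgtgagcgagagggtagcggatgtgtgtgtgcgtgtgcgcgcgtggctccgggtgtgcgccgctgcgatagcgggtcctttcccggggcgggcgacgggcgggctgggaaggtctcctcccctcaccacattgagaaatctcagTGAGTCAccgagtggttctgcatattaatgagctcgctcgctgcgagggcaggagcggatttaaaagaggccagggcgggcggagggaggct
The EGR1 window held CArG boxes whose first bases lie 105 and 83 bases before the start. A CArG box was found in the windows of 2 of 16 immediate early genes that matched the promoter table, against 1.44% of all 27305 genes in that table. TGACNTCA was found in 4 of those 16 genes and in 8.29% of all genes, and TGANTCA in 0 of 16 and 8.06%. Among genes above both vector libraries, 1.71% of 1053 matched genes held a CArG box, and among genes below, 1.41% of 1559. These matches describe letters only.

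The libraries held between 20645410 and 24147302 reads, as recovered from the values. Over tested genes, libraries A and B differed with an SD of 0.192 log2 units for the vector, 0.145 for wild type and 0.436 for Q311E, so the Q311E pair stood apart. The squamous marker KRT5 was between 405 and 579 FPKM and the epithelial gene EPCAM between 116 and 167 FPKM. Of the 11 genes listed as squamous markers, EPCAM among them, 6 lay below both vector libraries (54.5%, against 17.5% of all tested genes). Of these 6, KRT14, KRT6A and DSG3 passed the test as lower. CDH1 was the 1 marker above both vector libraries (9.09%, against 11.9% of all tested genes). It was at 61.65 and 58.36 FPKM in the vector and 66.04 to 74.98 FPKM in the expressing libraries. Among listed glandular markers, KRT8 was at 236 to 451 FPKM and KRT18 at 192 to 356 FPKM. KRT7 was at 11.36 to 19.55 FPKM. MUC1 was at 4.32 to 6.55 FPKM in the vector and wild-type libraries and at 15.2 and 62.7 FPKM in Q311E. By contrast, KRT19 did not exceed 1.88 FPKM and MUC5AC did not exceed 0.202 FPKM, and AGR2 was at 1.12 to 3.78 FPKM. The defining leukocyte gene PTPRC did not exceed 0.00478 FPKM and the endothelial gene PECAM1 did not exceed 0.317 FPKM, whereas CDH5, another endothelial marker, was at 15.4 to 35.2 FPKM. CD14, a monocyte marker, was at 1.78 and 3.17 FPKM in the vector, 2.39 and 2.56 in wild type and 4.93 and 18.8 in Q311E.

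MB21D2 itself was at 8.31 and 7.15 FPKM in the vector libraries, 104 and 106 FPKM in wild type and 32.8 and 21.2 FPKM in Q311E. All 4 expressing libraries were above both vector libraries, and the Q311E libraries were below the wild-type ones. The pooled difference was 2.63 ± 0.70 (SE) on the log2(FPKM + 1) scale, on which all differences are given, and did not pass limma's 2-group test (adjusted p = 0.165, n = 4 and 2). It passed limma's 3-group fit, which takes the mean of both lines against the vector and keeps the difference between lines out of the error (adjusted p = 0.00472). FPKM does not separate the transgene from the cell's own gene, so this does not measure the 2 apart.

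Against the vector, 68 genes passed the 2-group test at an adjusted p under 0.05, which is 0.592% of tested genes. Of these 23 rose, or 0.2%, and 45 fell, or 0.392%, and all 68 also had no overlap between groups. The split was 27 higher and 33 lower after quantile normalization, and 42 higher and 44 lower once the trend with exon length was removed. The 3-group fit called 1323 genes, or 11.5% of those tested, with 481 higher (4.19%) and 842 lower (7.33%), and it included all 68. Leaving out vector A, vector B, wild type A, wild type B or Q311E A left 2, 2, 4, 6 and 6 genes called, and leaving out Q311E B raised the count to 589.

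Genes without overlap made up 29.4% of tested genes, 11.9% above and 17.5% below the vector libraries. Most differences were small. The median difference was 0.33 for those above and -0.35 for those below, and a gap of at least 1 between the nearest libraries of the groups was seen in 37 genes above (0.322%) and 28 below (0.244%). The plot of differences by level shows most of these genes close to 0.

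**Figure D1:**
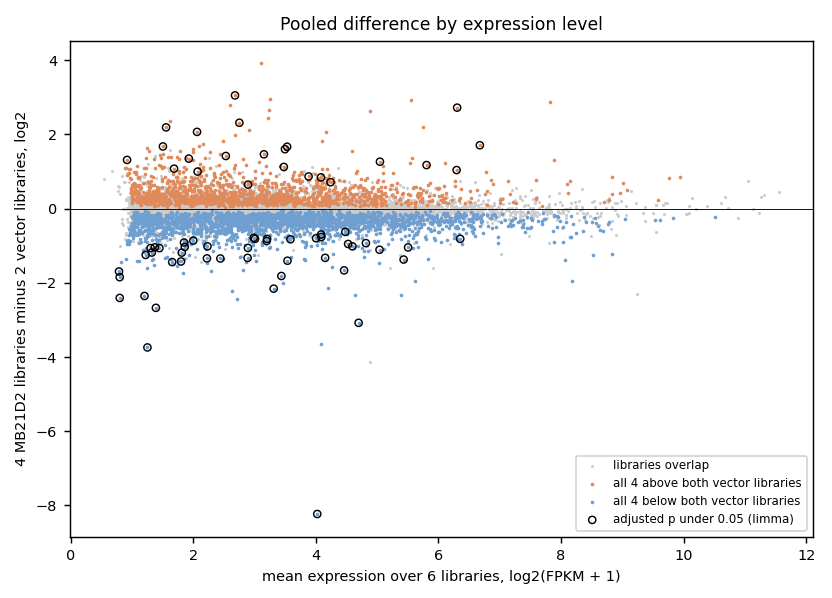
Pooled difference (4 expressing minus 2 vector libraries, log2) against mean expression, one point per tested gene. Coloured points are the 1368 genes above and 2006 genes below both vector libraries; the 68 circled genes passed limma's 2-group test.

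The largest fall was in KRT14 (ENSG00000186847, chromosome 17: 41582279 to 41586921 in GRCh38), which encodes the basal keratin. It was at 762 and 697 FPKM in the vector libraries, 2.08 and 2.35 FPKM in wild type and 0.771 and 0.902 FPKM in Q311E. Its mean was 729 ± 46.2 FPKM (SD, n = 2) in the vector and 1.53 ± 0.805 FPKM (SD, n = 4) in the expressing libraries, a difference of -8.23 ± 0.30 (adjusted p = 0.000524, limma). In bulk RNA, fewer cells of a type and less RNA per cell cannot be told apart. KRT6A, a keratin of stressed and wounded epithelium, was at 109 and 104 FPKM in the vector and between 7.9 and 16.7 FPKM in the expressing libraries, and it fell by 3.08 ± 0.30 (adjusted p = 0.0304). Both genes have close paralogs or pseudogenes that can share reads, so their levels are uncertain.

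The remaining keratins moved less or in both directions. KRT5, the partner of keratin 14, was at 522 and 537 FPKM in the vector and 405, 417, 473 and 579 FPKM in the expressing libraries, and the groups overlapped. KRT17 was at 75.1 and 79.3 FPKM in the vector, 33.3 and 33.4 FPKM in wild type and 118 and 123 FPKM in Q311E, so the lines lay on opposite sides of the vector. KRT16 was below both vector libraries in all 4, at 2.57 to 4.19 FPKM against 5.94 and 5.36 FPKM (adjusted p = 0.146). Of 7 tested basal and stress keratins, 3 were below both vector libraries (42.9%, against 17.5% of all tested genes) and 0 above (against 11.9%). Their median against the vector was -1.19 and -1.18 in wild type, -0.35 in Q311E A and 0.1 in Q311E B. KRT10, a suprabasal keratin, was lower by 0.89 ± 0.15 without passing the test (adjusted p = 0.0743), and KRT18, a keratin of simple epithelium, was above both vector libraries in all 4, at 234 to 356 FPKM against 192 and 206 FPKM (adjusted p = 0.215).

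DSG3, a desmosomal cadherin, was at 4.99 and 4.94 FPKM in the vector and 2.07 to 2.58 FPKM in the expressing libraries, and it fell by 0.86 ± 0.11 (adjusted p = 0.0413). Of 11 tested desmosome genes, 3 were below (27.3%, against 17.5% of all tested genes) and 1 above (9.09%, against 11.9%), and DSG3 alone passed the test. The desmosomal plakin gene DSP was the one above, at 30.9 to 49.2 FPKM against 24.3 and 22 FPKM. DSP lies in the stretch of chromosome 6 from RREB1 to JARID2 described later, where 21 of 34 genes were above. PI3, the elastase inhibitor elafin, fell by 1.85 ± 0.17 (adjusted p = 0.0304), and RNASE7, a skin antimicrobial ribonuclease, was at 49.1 and 47.5 FPKM in the vector, 5.57 and 5.13 in wild type and 19.9 and 18 in Q311E (adjusted p = 0.174). SERPINB9, a granzyme B inhibitor, was at 2.74 and 2.83 FPKM in the vector and at most 0.42 FPKM in the expressing libraries (adjusted p = 0.0337). Of 6 tested clade B serpins, 4 were below (66.7%, against 17.5% of all tested genes) and 0 above (against 11.9%). When the stretches on chromosomes 6, 9 and 20 described later were left out, 2 of the remaining serpins were below. In that setting 1889 of all 10949 tested genes were below.

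HORMAD2 (ENSG00000176635, chromosome 22: 30080174 to 30177075), a meiotic chromosome axis gene, was at 12.3 and 12.6 FPKM in the vector and at 0.018 FPKM in Q311E B, and the other expressing libraries list it at 0 (adjusted p = 0.000218). TMPRSS15, the gut protease enteropeptidase, was at 4.57 and 4.05 FPKM in the vector and listed at 0 in all 4 expressing libraries (adjusted p = 0.00193). FKBP10, a prolyl isomerase that acts on collagen in the endoplasmic reticulum, was at 8.22 and 7.84 FPKM in the vector and 0.277 to 0.55 FPKM in the expressing libraries (-2.67 ± 0.13, adjusted p = 0.00193). For these genes the gap between groups was far wider than the spread within either group.

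**Figure D2:**
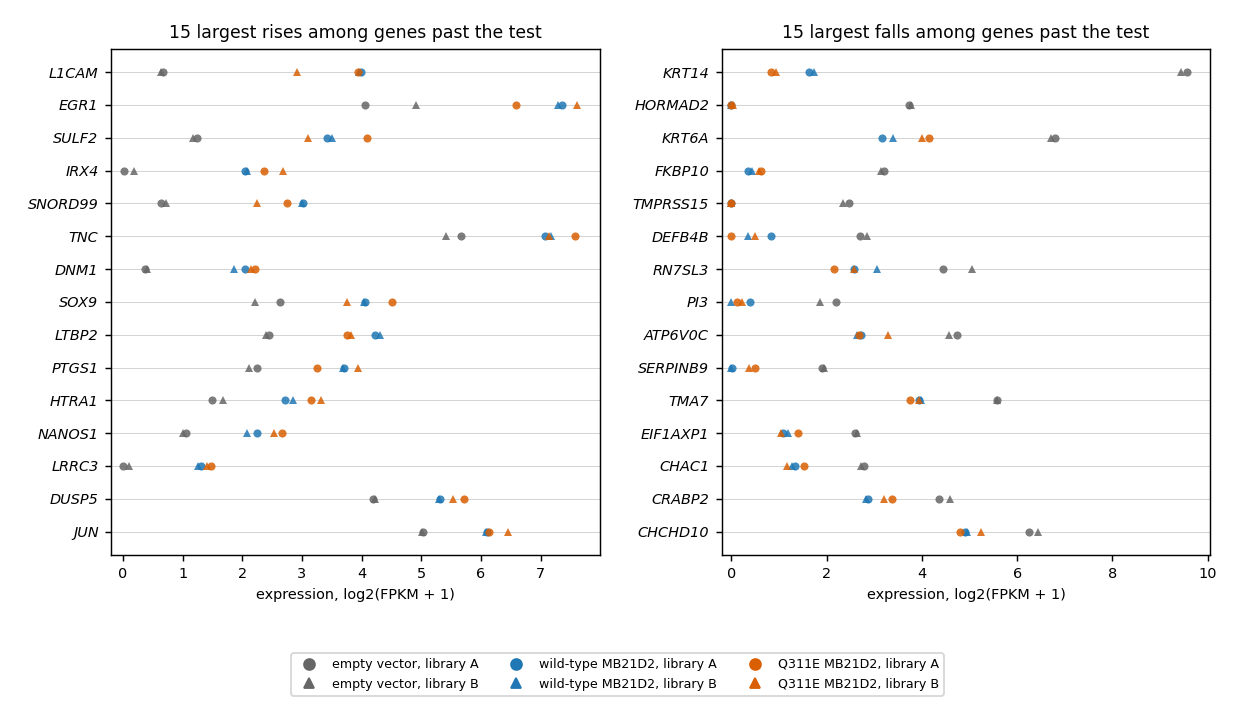
Expression in each of the 6 libraries, log2(FPKM + 1), for the 15 largest rises and 15 largest falls among genes that passed limma's 2-group test. Grey points are vector libraries and coloured points the expressing libraries; the groups do not overlap in any of these genes.

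The largest rise past the test was in L1CAM (ENSG00000198910, chromosome X: 153861514 to 153886174), a neural cell adhesion molecule. It was at 0.587 and 0.546 FPKM in the vector, 14.8 and 14.4 in wild type and 14.3 and 6.59 in Q311E, and rose by 3.05 ± 0.32 (adjusted p = 0.0329). Q311E B was the lowest of the 4. Among 24 tested axon and neurite genes, 7 were above (29.2%, against 11.9% of all tested genes) and 4 below (16.7%, against 17.5%) both vector libraries, and L1CAM and EFNB1 passed the test. STMN3, a microtubule-destabilizing stathmin, was above at 39.6, 39.4, 18.7 and 20.2 FPKM against 5.96 and 5.8 (adjusted p = 0.0743), while BASP1, a growth cone protein, was below at 42, 43.9, 17.7 and 26.1 FPKM against 117 and 122 (adjusted p = 0.0882). EFNB1, a membrane-bound ligand of Eph receptors, fell by 1.33 ± 0.14 (adjusted p = 0.0319).

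Several matrix genes rose. TNC, the matrix glycoprotein tenascin C, was at 49.7 and 41.5 FPKM in the vector, 134 and 144 in wild type and 191 and 141 in Q311E, and rose by 1.71 ± 0.18 (adjusted p = 0.0319). LTBP2, which binds microfibrils, was at 4.48 and 4.29 FPKM against 12.5 to 18.9 FPKM and rose by 1.60 ± 0.19 (adjusted p = 0.0353). SULF2, a heparan sulfate sulfatase, rose by 2.31 ± 0.26 (adjusted p = 0.0337), and HTRA1, a secreted serine protease, by 1.42 ± 0.19 (adjusted p = 0.0487). Of 16 tested matrix glycoproteins, 4 were above (25%, against 11.9% of all tested genes) and 1 below (6.25%, against 17.5%), and 2 passed the test. Of 16 tested collagen modifiers, 4 were above (25%, against 11.9% of all tested genes) and 2 below (12.5%, against 17.5%), and FKBP10 alone passed the test. SERPINH1, the collagen chaperone, was at 66.6 to 74.6 FPKM against 48.4 and 47.3 (adjusted p = 0.0781), while LOXL4, a lysyl oxidase, was at 38.4 and 67.7 FPKM in Q311E but 3.85 and 4.39 FPKM in wild type and 1.6 and 2.48 in the vector.

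Transcription factor genes were among the rises. IRX4, a homeobox gene, was at 0.0139 and 0.13 FPKM in the vector and 3.11 to 5.41 FPKM in the expressing libraries (2.19 ± 0.21, adjusted p = 0.0304), and SOX9 rose by 1.67 ± 0.23 (adjusted p = 0.0492). LRRC3 was listed at 0 in vector A and at 0.0663 FPKM in vector B, against 1.38 to 1.78 FPKM. CXCL14, an epithelial chemokine whose promoter is shown above, was at 0.377 and 0.441 FPKM in the vector, 11.2 and 11 in wild type and 34.7 and 38.4 in Q311E. Its pooled difference was the largest upward one named here, 3.92 ± 0.57, yet it missed the 2-group test (adjusted p = 0.058) and passed the 3-group fit (adjusted p = 7.33e-05).

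Immediate early genes lay mostly above the vector. Of 22 listed, 18 were tested, and 12 lay above both vector libraries and 0 below, which is 66.7% against 11.9% of all tested genes. Their median difference was 1.01, against -0.02 over all tested genes. EGR1 was at 15.7 and 29.2 FPKM in the vector, 163 and 157 in wild type and 94.9 and 194 in Q311E, and rose by 2.72 ± 0.35 (adjusted p = 0.0455). JUN, at 31.8 and 31.3 FPKM against 66.6 to 87 FPKM, rose by 1.17 ± 0.14 (adjusted p = 0.0353), and ATF3, a stress-induced factor, by 1.12 ± 0.14 (adjusted p = 0.0413). FOS was at 8.16 and 15.2 FPKM in the vector and 87.4, 81.4, 58.3 and 167 FPKM in the expressing libraries (adjusted p = 0.058), and FOSB was similar in size at 2.95 ± 0.45 (adjusted p = 0.058).

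For FOS, ZFP36 and DUSP1 the highest value was in Q311E B. ZFP36, which destabilizes mRNAs, was at 30.3, 27.3, 21.1 and 72.6 FPKM against 10.5 and 11. Without Q311E B, 13 of the 18 immediate early genes lay above both vector libraries and the median was 0.77. In that setting 2371 of all 11481 tested genes lay above, against 1368 with all libraries.

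Of 18 tested genes that feed back on ERK, 8 were above both vector libraries (44.4%, against 11.9% of all tested genes) and 0 below (against 17.5%), and 1 passed the 2-group test. That list shares FOSL1 and IER3 with the immediate early list. The ERK feedback list had a median against the vector of 0.3 and 0.27 in wild type, 0.54 in Q311E A and 0.03 in Q311E B. DUSP5, a nuclear phosphatase of ERK, was at 17.2 and 17.6 FPKM in the vector, 39 and 38.4 in wild type and 51.4 and 45.4 in Q311E, and rose by 1.26 ± 0.15 (adjusted p = 0.0344). DUSP6, its cytoplasmic relative, was at 1.92 and 1.68 FPKM against 2.58 to 4.54 FPKM (adjusted p = 0.169). Among EGF receptor genes and ligands, 5 of 10 were above (50%, against 11.9%) and 0 below, and 0 passed limma's 2-group test, with 2 at an unadjusted p under 0.05 and 1 called higher by the 3-group fit. EREG, an EGF family ligand, was at 4.12 to 9.31 FPKM against 2.71 and 2.57 (adjusted p = 0.161). Of 18 tested YAP and TAZ targets, 7 were above (38.9%, against 11.9% of all tested genes) and 2 below (11.1%, against 17.5%). Of these 18 targets, 0 passed limma's 2-group test, with 7 at an unadjusted p under 0.05. The 3-group fit called 4 higher and 1 lower. Their median against the vector was 0.35 and 0.33 in wild type, 0.48 in Q311E A and -0.19 in Q311E B. CCN2, a matricellular protein of that list, was at 15.3 and 21.9 FPKM against 67.7 to 148 FPKM (adjusted p = 0.058).

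**Figure D3:**
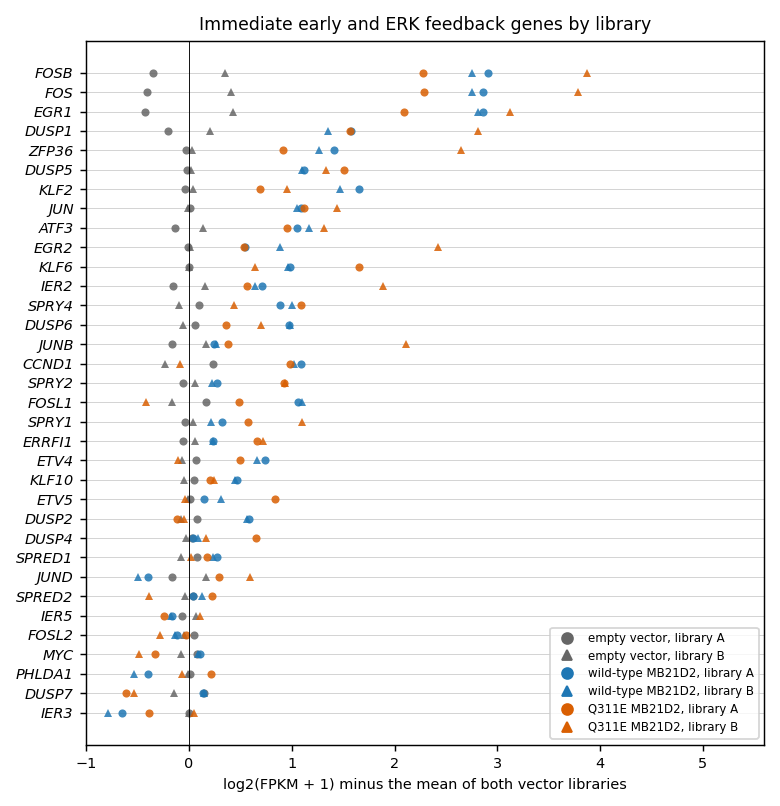
Immediate early and ERK feedback genes in each library, as log2(FPKM + 1) minus the mean of both vector libraries. The expressing libraries of EGR1, FOS, JUN and DUSP5 all lie to the right of both vector libraries, and several genes have their highest value in Q311E B. The median of the ERK feedback genes in Q311E B was 0.03.

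Of 29 tested nuclear genes for respiratory chain subunits, 18 lay below both vector libraries and 0 above, or 62.1% against 17.5% of all tested genes, with a median of -0.29, and 1 passed the 2-group test. That gene, NDUFB8, a subunit of complex I, was at 8.16 and 10.2 FPKM in the vector and 2.44 to 3.57 FPKM in the expressing libraries, and fell by 1.34 ± 0.15 (adjusted p = 0.0337). Of 28 mitochondrial ribosomal protein genes, 18 were below (64.3%, against 17.5% of all tested genes) and 1 above (3.57%, against 11.9%). Of these 28 genes, 0 passed limma's 2-group test, with 9 at an unadjusted p under 0.05, while the 3-group fit called 8 lower and 1 higher. The 13 genes encoded in mitochondrial DNA all overlapped between groups, with a median of 0.15. For these genes the vector libraries themselves lay apart, with medians of -0.52 in A and 0.52 in B against their mean. Overlap is easily reached with such a spread, so it does not show that these genes were unchanged. CHCHD10, a protein of the mitochondrial intermembrane space, fell by 1.37 ± 0.15 (adjusted p = 0.0333).

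Some named genes without overlap had a wide spread among the expressing libraries and did not pass the 2-group test. KLK6, a secreted trypsin-like protease, was at 1.15 and 1.64 FPKM in the vector and 4.3 to 8.73 FPKM in the expressing libraries (adjusted p = 0.0743). MUC6, a gel-forming mucin of the stomach, was at 0.00982 and 0.0517 FPKM in the vector, 1.75 and 2.38 in wild type and 5.34 and 12.2 in Q311E (adjusted p = 0.161). S100A7, the antimicrobial protein psoriasin, was below at 1.17, 1.64, 6.77 and 61.4 FPKM against 70.2 and 116 FPKM (adjusted p = 0.295), with Q311E B close to the vector. IL1A, an alarm cytokine of keratinocytes, was at 114 and 128 FPKM in the vector, 9.85 and 7.99 in wild type and 39.4 and 89.9 in Q311E (adjusted p = 0.345).

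Of 18 tested TGF-beta and activin genes, 4 were above both vector libraries (22.2%, against 11.9% of all tested genes) and 2 below (11.1%, against 17.5%). Of these 18 genes, 0 passed limma's 2-group test, with 6 at an unadjusted p under 0.05, and the 3-group fit called 3 higher and 2 lower. INHBB, the beta B subunit of activin, was at 0.723 and 0.65 FPKM in the vector and 14.6, 14.4, 16.1 and 3.42 FPKM in the expressing libraries (adjusted p = 0.0977). TGFBI, a TGF-beta-induced matrix protein, was below at 37.4 to 45.5 FPKM against 67.3 and 66 (adjusted p = 0.0781). Outside that list, TIMP3, a matrix-bound metalloprotease inhibitor, was above at 2.04 to 4.12 FPKM against 0.783 and 0.516 (adjusted p = 0.0707). CRABP2, a carrier of retinoic acid, was at 19.6 and 23 FPKM in the vector and 6.07 to 9.38 FPKM in the expressing libraries, and fell by 1.40 ± 0.19 (adjusted p = 0.0476).

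A few of the largest changes are in features whose counts are uncertain. DEFB4B, a beta-defensin with a near-identical copy, fell by 2.35 ± 0.23 (adjusted p = 0.0304), and EIF1AXP1, a processed pseudogene, by 1.44 ± 0.13 (adjusted p = 0.0304). RN7SL3, a short RNA of the signal recognition particle with many copies, was at 20.9 and 32.1 FPKM in the vector and 3.46 to 7.37 FPKM in the expressing libraries (adjusted p = 0.0463). SNORD99, a small nucleolar RNA, was at 0.56 and 0.655 FPKM against 3.75 to 7.11 FPKM (adjusted p = 0.0337), and its host gene's reads may be part of its count.

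Exon length moved with direction. The median exon length was 5556 bases for genes above both vector libraries, 3740 for those below and 4684 for all tested genes. Among the 2869 genes with exon lengths up to 2802 bases, 24.1% were below and 7.91% above, and among the 2868 genes of at least 7098 bases, 10.5% were below and 15.3% above. The respiratory chain list has a median exon length of 3066 bases and the mitochondrial ribosomal list 2367. With the length trend removed, 14 of 29 respiratory chain genes and 11 of 28 mitochondrial ribosomal genes lay below, against 1701 of all 11481 tested genes. TPM scaling also gave 11 of the 28 mitochondrial ribosomal genes, against 1597 of 11481. Beyond that, the part of exon length in these results was not tested. TMA7, a short gene for a translation-associated protein, was at 46.4 and 46.7 FPKM against 12.5 to 14.7 FPKM and fell by 1.66 ± 0.10 (adjusted p = 0.00615).

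Of 24 tested genes of the amino acid and unfolded protein responses, 11 were below both vector libraries, 2 above and 11 overlapped. The share below was 45.8%, against 17.5% of all tested genes, and 2 passed the 2-group test as lower and 1 as higher. The list median against the vector was -0.48 and -0.5 in wild type, and -0.02 and -0.13 in Q311E. In the 3-group fit 13 of the 24 genes differed between the lines, against 27.5% of all tested genes. CHAC1, which degrades glutathione, was at 5.88 and 5.6 FPKM in the vector and 1.24 to 1.88 in the expressing libraries, and fell by 1.42 ± 0.13 (adjusted p = 0.0304). PHGDH, the first enzyme of serine synthesis, fell by 0.83 ± 0.09 (adjusted p = 0.0337). ATF4 itself, the transcription factor of this response, was at 178 and 186 FPKM against 127 to 144 FPKM (adjusted p = 0.143). ATF3, also in this list, rose.

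**Figure D4:**
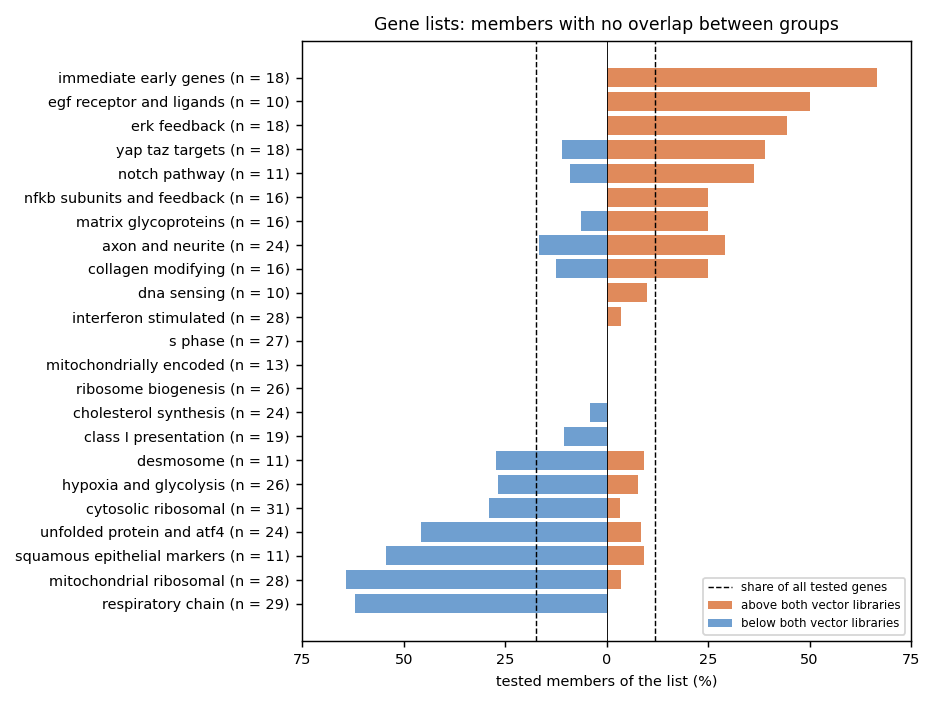
Share of tested members of each gene list that lay above (right) or below (left) both vector libraries in all 4 expressing libraries. Dashed lines mark the shares among all tested genes, 11.9% above and 17.5% below.

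Other lists differed between the 2 expressing lines and had few members without overlap, against 29.4% of all tested genes. Of 24 cholesterol synthesis genes, 1 was below and 0 above, while 23 differed between Q311E and wild type in limma's 3-group fit. Of 28 interferon-stimulated genes, 1 was above and 22 differed between the lines. Of 26 ribosome biogenesis genes, all overlapped and 25 differed between the lines. Over all genes without overlap, Q311E and wild type differed in 579, or 17.2%, against 27.5% of all tested genes, a description with no test. The rule leaves out genes whose lines lie on opposite sides of the vector, so a lower share can follow from the rule itself. Of the 579 genes, 206 were above the vector, with Q311E farther from the vector in 159 and wild type in 47. Among the 373 below, Q311E was farther in 228 and wild type in 145.

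Genes without overlap clustered along chromosomes 6, 9 and 20. These stretches were drawn after the values were seen and carry no test. Among all tested genes, 11.9% were above and 17.5% below both vector libraries. In the order given here, the stretches had 72.1% above, 45.7% below, 78.3% below, 61.8% above and 55.1% below. On chromosome 9, from PRXL2C at 96639577 to the end of TUBBP5 at 138177433 in GRCh38, 207 of 287 tested genes were above both vector libraries and 2 below, with a median difference of 0.47. The median was 0.48, 0.48, 0.5 and 0.48 in the 4 expressing libraries. Just before it, from PABIR1 to CDC14B, 37 of 81 genes were below and 3 above, with a median of -0.26. On chromosome 6, from DUSP22 to FARS2, 18 of 23 genes were below and 0 above, with a median of -0.74, and in the next stretch, from RREB1 to JARID2, 21 of 34 were above and 1 below, with a median of 0.45. On chromosome 20, from C20orf96 to ENSG00000204556, 59 of 107 genes were below and 1 above, and the median was nearer 0 in wild type (-0.2 and -0.21) than in Q311E (-0.49 and -0.56).

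The stretches hold 16 of the 68 called genes and 532 of the 11481 tested genes. GMDS, an enzyme of GDP-fucose synthesis, WRNIP1, a replication fork protein, and CDYL, a chromatin reader, fell by 1.06 ± 0.13, 0.95 ± 0.09 and 0.79 ± 0.09 in the first stretch of chromosome 6. RANBP9 rose by 0.84 ± 0.09 in the second. TBC1D2 and FKBP15 rose by 0.71 ± 0.09 and 0.65 ± 0.09 on chromosome 9, where TNC, DNM1, PTGS1 and NOTCH1 also lie. Of these, NOTCH1 did not pass limma's 2-group test (adjusted p = 0.0857). Without the genes of these stretches 38 genes were called, 11 higher and 27 lower.

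**Figure D5:**
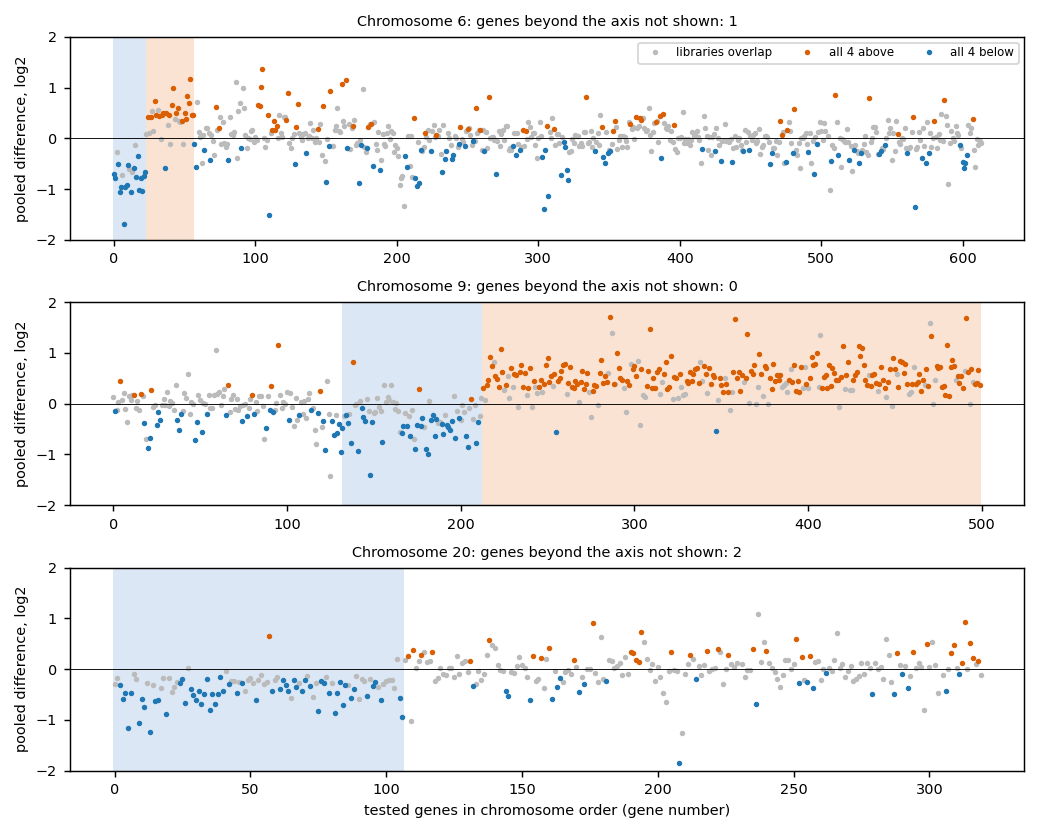
Pooled difference (log2) of each tested gene along chromosomes 6, 9 and 20, in gene order. Shaded blocks are the stretches named in the text, where 207 of 287 genes on chromosome 9 lie above both vector libraries and 18 of 23 on chromosome 6 lie below. Among all tested genes, 11.9% lie above and 17.5% below.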

How the data were processed

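The deposited table gives FPKM per gene for 6 RNA-seq libraries; the submitters' processing notes name CASAVA and list mm8 and mm9, which are mouse builds, although gene identifiers are human, and the aligner is not given in the sources used here. Positions and exon lengths came from GENCODE 29. Reads were recovered from the FPKM: at a tolerance of 0.01, 22683 of 30178 genes gave whole reads at the GENCODE 29 exon length, and with a length fitted between 0.25 and 4 times that length for the rest, 99.85% did. Genes whose FPKM averaged 1 or more were analysed as log2(FPKM + 1), with limma 3.58.1 in R 4.3.3 (variance trend, Benjamini-Hochberg over 11481 genes). A count test planned as an alternative was replaced by limma-voom on the recovered reads, chosen after seeing the data, which called 46 genes. On simulated data, 61 of 100 genes changed by 1 log2 unit and 86 of 100 changed by 2 were recovered, with 11 false calls. The letters A and B were not treated as pairs, and the labels give no pairing. Same-letter deviations correlated at -0.0255 for vector and wild type, 0.387 for vector and Q311E, and -0.0061 for wild type and Q311E. A deviation shared by the vector and Q311E libraries of 1 letter is therefore left in the error of the main fit. Named genes were MB21D2, the 15 largest rises and falls among called genes, up to 4 genes without overlap per list and the 6 with the largest difference between lines; KRT5, KRT17, PHGDH, ATF4, SDF2L1, XBP1, GMDS, WRNIP1, CDYL, RANBP9, FKBP15 and TBC1D2 were picked after their values were seen. The members and the gene lists were chosen with earlier results of these data known. At the filter's edge, IL17RE (mean 1.00029 FPKM) was kept and JAK2 (0.99972 FPKM) was not.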

Additional observations from a re-analysis of the deposited data

Results flagged for a closer look

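The difference between the 2 expressing lines was tested directly (Q311E minus wild type, limma's 3-group fit, adjusted p under 0.05), and several named genes differed between the lines by it. The log2 difference was positive, higher in Q311E, for KRT6A (0.8), KRT17 (1.82), LOXL4 (3.35), RNASE7 (1.65), SERPINB9 (0.44), SERPINB6 (0.68), CRABP2 (0.45), SDF2L1 (0.43), XBP1 (0.74), DUSP5 (0.31), HTRA1 (0.46), NANOS1 (0.44), CXCL14 (1.63), KLK5 (0.76), MUC6 (1.59), MUC16 (1.16), GMDS (0.28), IL1A (2.62), IL20RB (2.23) and HSPA6 (2.16). It was negative, lower in Q311E, for MB21D2 (-1.95), KRT14 (-0.81), PKP1 (-0.5), DSP (-0.45), MRPL12 (-0.65), TRIB3 (-0.69), LTBP2 (-0.48), FBN2 (-0.86), STMN3 (-0.99) and BASP1 (-0.97). MB21D2 itself is among the latter.

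Among the 4 expressing libraries, 1 library stood away from the other 3 by more than Dixon's critical value, judged by the gap to its nearest neighbour over the whole range. The ratios were 0.945 for KRT18, 0.85 for DSC3, 1.0 for HORMAD2, 0.869 for ATP6V0C, 0.857 for TMA7, 0.83 for JUN, 0.85 for DUSP1, 0.951 for CCN1, 0.958 for L1CAM, 0.935 for TBC1D2 and 0.922 for INHBB. The HORMAD2 ratio comes from 1 read in 1 library and 0 in the other 3, so it shows no library standing apart. The library standing apart was Q311E B for KRT18, DSC3, ATP6V0C, JUN, DUSP1, CCN1, L1CAM and INHBB. Chance alone flags about 1 in 20 such groups. That rate takes the 4 libraries as draws from 1 population, although they come from different lines.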

How the results depend on the processing

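The 3-group fit called 1323 genes, 1202 of them without overlap, in place of 68. With the A and B letters as a replicate block 5 genes were called; no pairing is given in the labels. A filter at a mean FPKM of 5 gave 41 called genes, 2160 genes without overlap, and dropping the stretches of chromosomes 6, 9 and 20, chosen after seeing the data, gave 38. No filter gave 5461 genes without overlap, and 258 of them differed between Q311E and wild type, against 579; TPM scaling gave 376. The causes were not tested. Leaving out 1 library at a time gave 2 to 589 called genes, 3731 to 5325 genes without overlap and 0 to 1563 that differed between lines; the 0 came on leaving out either wild-type library (A, B), where limma gave 552 and 525 genes at an unadjusted p under 0.05. The KRT17 difference, -0.27 with all libraries, ranged from -0.59 to 0.029 on leaving out 1 library and was above 0 without either wild-type library (0.029 and 0.028). Of the 89 named genes, 36 lost the call under the block, and 28 gained it without Q311E B. The planned edgeR test was not run, since the values are FPKM. What limits the precision was not tested.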
